A study of Mus musculus with 24 samples.

Results

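SCAP loss in lung CCR6-CD69- memory B cells was examined in 8 of the 24 libraries of the series: 4 labelled SCAP cKO CCR6-CD69- csMBC and 4 labelled WT CCR6-CD69- csMBC, taken by their titles. The SCAP cKO libraries came from SCAP fl/fl hCD20-TamCre mice and the WT libraries from SCAP +/+ hCD20-TamCre mice. Both genotypes therefore carried a Cre that tamoxifen switches on under the human CD20 promoter, which is active in B cells. House dust mite extract (HDM) was given intranasally to all mice, with a rechallenge after 6 weeks, and in SCAP cKO mice SCAP was deleted before that recall. The other 16 libraries hold lung CCR6+CD69+ and circulating cells of the same 2 genotypes. Each genotype had 2 CCR6-CD69- libraries in batch 1 (replicates 1 and 2) and 2 in batch 2 (replicates 3 and 4). The labels do not say whether replicates came from separate animals, so every p-value here reflects a spread among libraries, which may be technical. For genes, the main fit estimated that spread over all 24 libraries. The question was which transcripts differ in this lung population between libraries labelled SCAP cKO and WT.

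SCAP is a membrane protein of the endoplasmic reticulum that carries the SREBP transcription factors to the Golgi when sterols are low. There the proteases encoded by Mbtps1 and Mbtps2 release the active part of SREBP, which switches on genes of cholesterol synthesis, lipoprotein uptake and fatty acid synthesis. INSIG proteins hold SCAP back in the endoplasmic reticulum when sterols are plentiful, and Insig1 is itself an SREBP target. CCR6 is a chemokine receptor and CD69 a retention molecule, and the labels name these cells as negative for both.

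No gene passed an adjusted p of 0.05 between the genotypes, and Insig1 was below every WT library in all 4 SCAP cKO libraries without passing. Windows at 4 annotated starts are shown because the sterol results turn on their genes. For Insig1, Nsdhl and Acaca the SCAP cKO and WT libraries did not overlap, while for Hmgcs1, a classical SREBP target, they did. Stard4 and Gpam did not overlap either (5.21% of all genes tested were apart and lower), and no window is shown for them. Each runs from 250 bases before to 50 after the annotated start, in RefSeq's GRCm38.p6, and capitals mark matches on either strand to the classical sterol regulatory element TCACNCCAC, the E-box CACGTG and the CCAAT box of nuclear factor Y (CCAAT or ATTGG).
Insig1, chr5:28071162-28071461, plus strand: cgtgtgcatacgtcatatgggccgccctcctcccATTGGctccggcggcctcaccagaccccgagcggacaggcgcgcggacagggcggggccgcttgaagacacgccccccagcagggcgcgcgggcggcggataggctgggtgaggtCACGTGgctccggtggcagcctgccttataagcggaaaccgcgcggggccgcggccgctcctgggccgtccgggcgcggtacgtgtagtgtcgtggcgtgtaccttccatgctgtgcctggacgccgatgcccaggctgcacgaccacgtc
Nsdhl, chrX:72918271-72918570, plus strand: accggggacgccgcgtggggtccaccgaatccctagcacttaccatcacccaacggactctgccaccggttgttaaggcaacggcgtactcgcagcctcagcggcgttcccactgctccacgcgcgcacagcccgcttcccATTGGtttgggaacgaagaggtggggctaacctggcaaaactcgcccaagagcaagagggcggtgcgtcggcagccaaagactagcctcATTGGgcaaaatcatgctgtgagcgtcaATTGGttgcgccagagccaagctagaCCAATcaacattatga
Hmgcs1, chr13:119690101-119690400, plus strand: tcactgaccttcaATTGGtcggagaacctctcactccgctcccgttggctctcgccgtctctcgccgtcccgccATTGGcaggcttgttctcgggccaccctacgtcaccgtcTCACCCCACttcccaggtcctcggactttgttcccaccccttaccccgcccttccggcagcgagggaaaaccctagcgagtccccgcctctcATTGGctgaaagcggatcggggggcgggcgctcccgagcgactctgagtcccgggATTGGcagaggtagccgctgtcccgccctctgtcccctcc
Acaca, chr11:84195188-84195487, plus strand: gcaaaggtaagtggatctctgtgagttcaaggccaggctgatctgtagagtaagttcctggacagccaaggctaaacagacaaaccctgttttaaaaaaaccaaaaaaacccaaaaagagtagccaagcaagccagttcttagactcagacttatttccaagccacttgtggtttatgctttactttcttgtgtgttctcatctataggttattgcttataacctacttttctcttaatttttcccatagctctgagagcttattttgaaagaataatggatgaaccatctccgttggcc
No motif searched was found in the Acaca window, which says only that these letters are not in it. Whether its annotated start is one used in these cells was not tested, so it may not be the promoter. The sterol element was found in 1.24% of the 32851 promoters of 300 bases in the table, the E-box in 7.15% and the CCAAT box in 37.4%. Of 69 promoters belonging to 52 genes on the lists of cholesterol synthesis, sterol uptake and fatty acid synthesis, 1 held the sterol element (Hmgcs1), 10 the E-box and 40 the CCAAT box. The motifs are descriptions of these windows. Among the genes tested that have a promoter in the table, the 73 with the sterol element had a median log2 fold change of -0.37, against -0.30 for the 5459 without it, and without SCAP cKO replicate 4 the medians were -0.16 and -0.15.

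The libraries were of very unequal depth. Total counts were 4641148, 2374395, 1329109 and 129025 in SCAP cKO replicates 1 to 4, and 3378171, 680077, 1577324 and 2387002 in WT replicates 1 to 4. The number of genes with at least 1 count was 7316, 6881, 4643 and 2134 in SCAP cKO libraries and 7129, 6480, 7084 and 6881 in WT libraries. Of 4864 genes with a WT median of at least 20 counts per 1e6 counts (CPM), SCAP cKO replicate 3 had no count for 866 (17.8%) and replicate 4 for 2917, against at most 58 (1.19%) in any other library. A count of 0 allows up to 23.3 CPM in SCAP cKO replicate 4 and up to 2.26 CPM in replicate 3, and such limits cover counting error only. Mean genes detected were 5244 ± 2381 in SCAP cKO and 6894 ± 296 in WT libraries (SD, n = 4 each; two-sided exact permutation p = 0.343), with a difference of 294 genes in batch 1 and -3594 in batch 2. SCAP cKO libraries correlated with each other at 0.427 to 0.694 across genes and WT libraries at 0.683 to 0.867 (Pearson, 6 pairs each). Because replicate 4 stands apart, a log2 fold change or list median is also given without it where that moves it by more than 1.5 times or turns its sign.

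**Figure D1:**
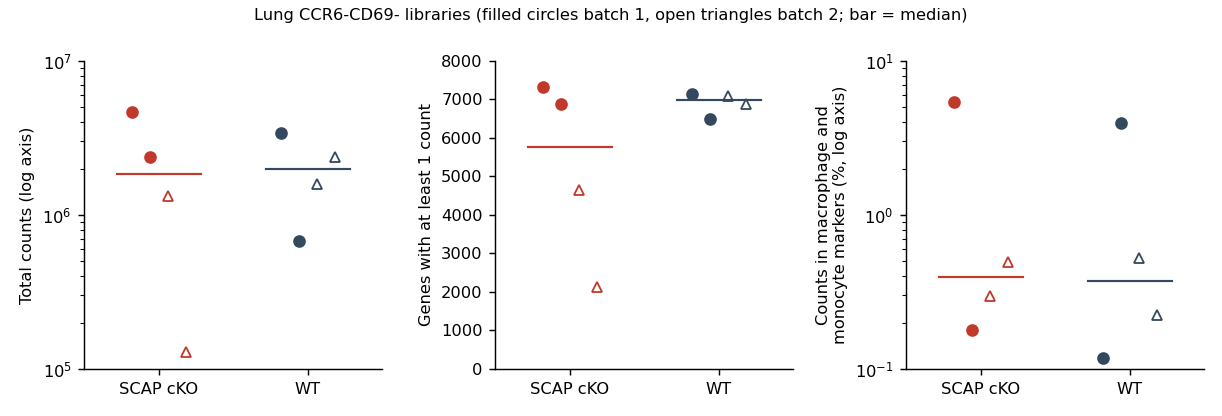
Depth and macrophage content of the 8 lung CCR6-CD69- libraries, SCAP cKO left and WT right: total counts (log axis), genes with at least 1 count, and the percent of counts in macrophage and monocyte markers (log axis). Bars are medians; SCAP cKO replicate 4 is lowest in counts and genes, and 1 library of each genotype is far above the rest in macrophage markers.

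B cell markers were counted in every library, but in 2 of them macrophage and monocyte markers took more counts. B cell identity genes took 0.506% to 0.898% of counts in SCAP cKO and 0.683% to 0.969% in WT libraries. The CD20 gene Ms4a1 was at 580, 928, 1097 and 876 CPM in SCAP cKO, against 1060, 785, 1312 and 1108 CPM in WT libraries. Of 13 tested identity genes 6 had a positive and 7 a negative log2 fold change, with a median of -0.11, and without SCAP cKO replicate 4 it was 5 and 8 with a median of -0.25. Macrophage and monocyte markers, by contrast, took 5.42% of counts in SCAP cKO replicate 1 and 3.95% in WT replicate 2, and at most 0.523% in the other 6 libraries. Chil3, made by alveolar macrophages, took the most counts of any gene in those 2 libraries, at 32558 CPM in SCAP cKO replicate 1 and 28598 CPM in WT replicate 2. Markers of T cells summed to 23.3 to 858 CPM in SCAP cKO and 265 to 519 CPM in WT libraries, and those of natural killer cells to at most 50.2 CPM in either genotype. In such bulk samples, fewer cells of a type and less RNA per cell cannot be told apart.

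Scap itself was not lower in all SCAP cKO libraries. It was counted at 139, 134, 86.5 and 0 CPM in SCAP cKO replicates 1 to 4, against 170, 115, 165 and 148 CPM in WT replicates 1 to 4. SCAP cKO replicates 1 and 2 lay within the WT range, and replicate 3 below it. The log2 fold change was -0.54 ± 0.94 (approximate SE; adjusted p = 0.998) and -0.15 ± 0.86 without SCAP cKO replicate 4. The counts are per gene and do not separate the floxed part from the rest of the transcript, so they do not measure deletion. Cd69, the sorting marker, was at 603, 604, 888 and 4224 CPM in SCAP cKO libraries, against 780, 679, 982 and 947 CPM in WT libraries. Only SCAP cKO replicate 4 stood above the WT range, and the log2 fold change of 0.92 ± 0.57 became -0.14 ± 0.53 without it. Ccr6 was not analysed here.

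Between SCAP cKO and WT libraries, 0 of 6779 genes tested passed an adjusted p of 0.05 in edgeR's quasi-likelihood test (0% in each direction). At an unadjusted p under 0.05 there were 496 genes (7.32%), 181 higher (2.67%) and 315 lower (4.65%) in SCAP cKO cells. A fit of only the 2 groups compared called 2 of 5640 genes higher (0.0355%; Paqr5 and Rbbp9) and 1 lower (0.0177%; Ighv1-64), the last 2 names being chosen after their values were seen. DESeq2 called 49 genes higher (0.723%) and 23 lower (0.339%), and limma voom with quality weights called 0. Of the 49, SCAP cKO replicate 4 was the highest of all 8 libraries for 42, and 36 kept a positive sign without it. Of the 23, all had 0 counts in replicate 4, all kept a negative sign without it, and for 18 the genotypes did not overlap. Without replicate 4, edgeR called 0 genes, with 65 higher (0.926%) and 272 lower (3.87%) at an unadjusted p under 0.05.

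Across all genes tested, 62.7% of log2 fold changes were negative and 37.3% positive, with a median of -0.31, against which each list is read. Over the same genes the median was -0.15 without SCAP cKO replicate 4. It was 0.15 when taken within batch 1 and -1.16 within batch 2. For 10 genes (0.148%) every SCAP cKO library was above every WT library, and for 353 (5.21%) every one was below. Without replicate 4 there were 84 (1.24%) and 406 (5.99%). Of those 353, 293 had 0 counts in SCAP cKO replicate 4 and 182 had 0 counts in both batch 2 SCAP cKO libraries. The part of depth in these values was not tested. For 61 genes the genotypes were apart with counts in all 8 libraries, 9 higher and 52 lower in SCAP cKO cells.

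Among the genes that control SREBP, Insig1 was counted at 129, 157, 156 and 0 CPM in SCAP cKO libraries, against 332, 235, 311 and 346 CPM in WT libraries. The genotypes did not overlap in either batch. The log2 fold change was -1.42 ± 0.82 (unadjusted p = 0.0879, adjusted p = 0.735), and -1.07 ± 0.72 without replicate 4. Stard4, a carrier of cholesterol inside the cell and an SREBP target, was at 30.8, 61.9, 0 and 0 CPM in SCAP cKO libraries, against 264, 89.7, 102 and 76.7 CPM in WT libraries. Again no SCAP cKO library reached the lowest WT library, with a log2 fold change of -2.29 ± 1.17 (unadjusted p = 0.0553). Of 14 tested genes for sterol uptake and SREBP control, 2 were apart and lower, against 5.21% over all genes. Both Insig1 and Stard4 were at 0 CPM in replicate 4, where depth limits what can be seen. Mbtps1, which encodes the first protease that cuts SREBP, was at 18.7, 114, 291 and 0 CPM in SCAP cKO, against 229, 187, 199 and 169 CPM in WT libraries, so 1 SCAP cKO library was above and 3 were below all WT libraries.

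Npc1, which exports cholesterol from the lysosome, went the other way. It was at 446, 310, 605 and 2790 CPM in SCAP cKO libraries, against 308, 150, 344 and 275 CPM in WT libraries. SCAP cKO replicate 2 lay inside the WT range, and replicate 4 was far above all others. The log2 fold change was 1.96 ± 0.61 in edgeR (unadjusted p = 0.00208, adjusted p = 0.610) and 0.84 ± 0.53 without replicate 4, and DESeq2 called it (adjusted p = 0.0301). Nfyb, a subunit of nuclear factor Y, was at 31.2, 80.4, 105 and 1356 CPM in SCAP cKO and 52.7, 47.1, 95.1 and 50.3 CPM in WT libraries, with a log2 fold change of 2.34 ± 1.12 that was 0.43 ± 1.26 without replicate 4. Of the 14 tested genes for sterol uptake and SREBP control, 8 had a positive and 6 a negative log2 fold change, with a median of 0.45, against -0.31 over all genes. Without replicate 4 they were 7 and 7, with a median of -0.04, against -0.15.

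The enzymes of cholesterol synthesis did not move together. Of 12 tested, 4 had a positive and 8 a negative log2 fold change, with a median of -0.50, and without replicate 4 it was 5 and 7 with a median of -0.19. Hmgcs1, which makes HMG-CoA at the head of the pathway, was at 111, 19.4, 308 and 7.75 CPM in SCAP cKO libraries, against 150, 187, 157 and 172 CPM in WT libraries. The SCAP cKO libraries straddled the narrow WT range, with a log2 fold change of -0.60 ± 0.89, or -0.31 ± 0.83 without replicate 4. Cyp51, lanosterol demethylase, was at 354, 297, 54.9 and 54.3 CPM in SCAP cKO libraries, against 205, 444, 535 and 420 CPM in WT libraries. Both batch 2 SCAP cKO libraries were below all WT libraries, while both batch 1 libraries lay within their range. Nsdhl, which acts later in sterol demethylation, was at 17.9, 0.842, 0 and 0 CPM in SCAP cKO libraries, against 74.6, 69.1, 33.0 and 26.8 CPM in WT libraries. It was the 1 gene of the 12 whose genotypes did not overlap, against 5.21% lower over all genes. Its log2 fold change was -3.24 ± 1.71 (unadjusted p = 0.0633). Pmvk, phosphomevalonate kinase, was at 275, 116, 281 and 0 CPM in SCAP cKO and 136, 60.3, 64.7 and 49.9 CPM in WT libraries, a log2 fold change of 1.22 ± 0.87. Summed over the list, the level was 1477, 1025, 1438 and 85.3 CPM in SCAP cKO and 1221, 1168, 1541 and 1026 CPM in WT libraries, so that the 3 deeper SCAP cKO libraries were at or within the bounds of the WT range. Sqle, Idi1 and some other listed enzymes were not analysed here.

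**Figure D2:**
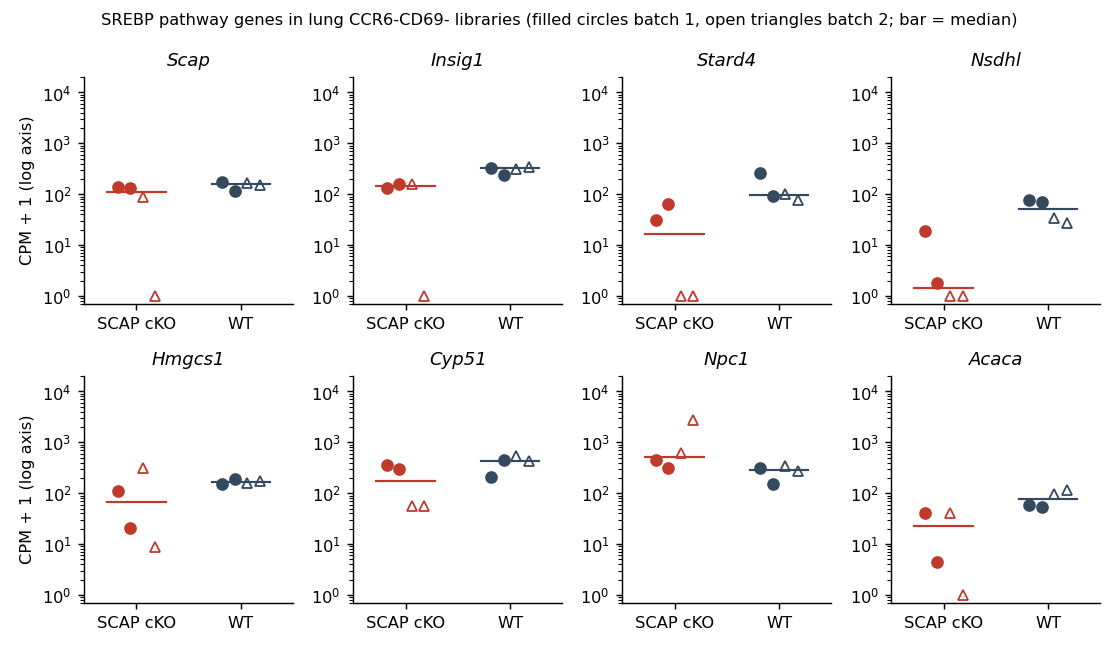
CPM + 1 (log axis) of 8 SREBP pathway genes in each lung CCR6-CD69- library, SCAP cKO left and WT right; bars are medians. Insig1, Stard4, Nsdhl and Acaca do not overlap between genotypes, whereas Scap, Hmgcs1, Cyp51 and Npc1 do.

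Fatty acid synthesis gave a similar picture. Of 13 tested genes, 4 had a positive and 9 a negative log2 fold change, with a median of -0.35, and without replicate 4 it was 5 and 8 with a median of -0.40. Acaca, acetyl-CoA carboxylase, which commits carbon to fatty acids, was at 40.7, 3.37, 40.6 and 0 CPM in SCAP cKO libraries, against 57.7, 52.9, 95.1 and 115 CPM in WT libraries. Every SCAP cKO library was below every WT library, with a log2 fold change of -1.56 ± 1.18 (unadjusted p = 0.191). Gpam, which starts glycerolipid assembly, was at 13.1, 3.37, 0 and 0 CPM in SCAP cKO and 32.9, 30.9, 27.3 and 19.7 CPM in WT libraries (log2 fold change -3.16 ± 1.67). Acaca and Gpam were the 2 of 13 whose genotypes were apart, against 5.21% lower over all genes. Scd2, a desaturase, was at 360, 79.2, 189 and 256 CPM in SCAP cKO libraries, against 274, 203, 275 and 361 CPM in WT libraries, with a log2 fold change of -0.19 ± 0.63, or -0.41 ± 0.56 without replicate 4. Acly, which makes cytosolic acetyl-CoA, was at 529, 370, 115 and 1620 CPM in SCAP cKO and 223, 397, 522 and 478 CPM in WT libraries. Its log2 fold change of 0.93 ± 0.56 was 0.05 ± 0.52 without replicate 4.

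Of 7 tested genes for esterification and lipid droplets, 6 had a negative log2 fold change, with a median of -0.46, and 5 without replicate 4, with a median of -0.32. Lipe, hormone-sensitive lipase, was at 7.76, 14.7, 12.0 and 0 CPM in SCAP cKO, against 36.1, 94.1, 71.0 and 38.1 CPM in WT libraries. Its log2 fold change was -2.60 ± 1.52, with no overlap between genotypes. Fitm2 did not overlap either, at 0 CPM in all 4 SCAP cKO libraries, against 0.592, 22.1, 1.27 and 5.87 CPM in WT libraries. Those WT values rest on 2, 15, 2 and 14 counts. Lipe and Fitm2 were the 2 of 7 apart, against 5.21% lower over all genes. Plin2, which coats lipid droplets, was at 576, 6.74, 16.6 and 0 CPM in SCAP cKO and 20.1, 284, 104 and 86.7 CPM in WT libraries. Its highest value in each genotype was in the library rich in macrophage markers, whose part in the result was not tested. Abca1, which exports cholesterol, was at 342, 90.1, 633 and 1170 CPM in SCAP cKO and 337, 535, 676 and 673 CPM in WT libraries, a log2 fold change of 0.00 ± 0.54. Without replicate 4 that of Abca1 was -0.58 ± 0.49, and it was -0.73 within batch 1 and 0.58 within batch 2.

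The genes of amino acid supply and the mTORC1 kinase pathway, which senses nutrients, lay lowest of all programmes with at least 4 tested members. All 10 tested had a negative log2 fold change, with a median of -1.01, and all 10 stayed negative without replicate 4, with a median of -0.69. They include Tsc1, Ddit4 and Sesn2, which restrain mTORC1, at -0.89 ± 0.99, -1.43 ± 1.36 and -1.14 ± 1.26. Without replicate 4 that of Tsc1 was -0.55 ± 0.98. The list therefore mixes opposite roles, and mTORC1 activity was not tested. Their summed level was 683, 657, 688 and 0 CPM in SCAP cKO libraries, against 995, 851, 1143 and 1207 CPM in WT libraries. No SCAP cKO library reached the lowest WT library, and this was the 1 list of the 36 for which the sums did not overlap. Among all genes tested, 5.21% had every SCAP cKO library below every WT library, and 1 list in 36 does not exceed that share. That share is of single genes, so it is not a like measure for sums over lists. None of the 10 had an unadjusted p under 0.05. Mtor, the kinase itself, was at 57.3, 90.1, 12.0 and 0 CPM in SCAP cKO libraries, against 184, 70.6, 134 and 135 CPM in WT libraries. SCAP cKO replicate 2 lay inside the WT range, and the log2 fold change was -1.50 ± 1.06. Shmt2, a mitochondrial enzyme of serine metabolism, was at 34.9, 232, 27.1 and 0 CPM in SCAP cKO, against 323, 80.9, 160 and 164 CPM in WT libraries. Rheb, the direct activator of mTORC1, was at 206, 53.5, 133 and 0 CPM in SCAP cKO and 229, 193, 170 and 134 CPM in WT libraries, with a log2 fold change of -0.80 ± 0.79, or -0.48 ± 0.68 without replicate 4. Within batch 1 the list median was -0.02, against 0.15 for all genes, and within batch 2 it was -2.46, against -1.16.

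**Figure D3:**
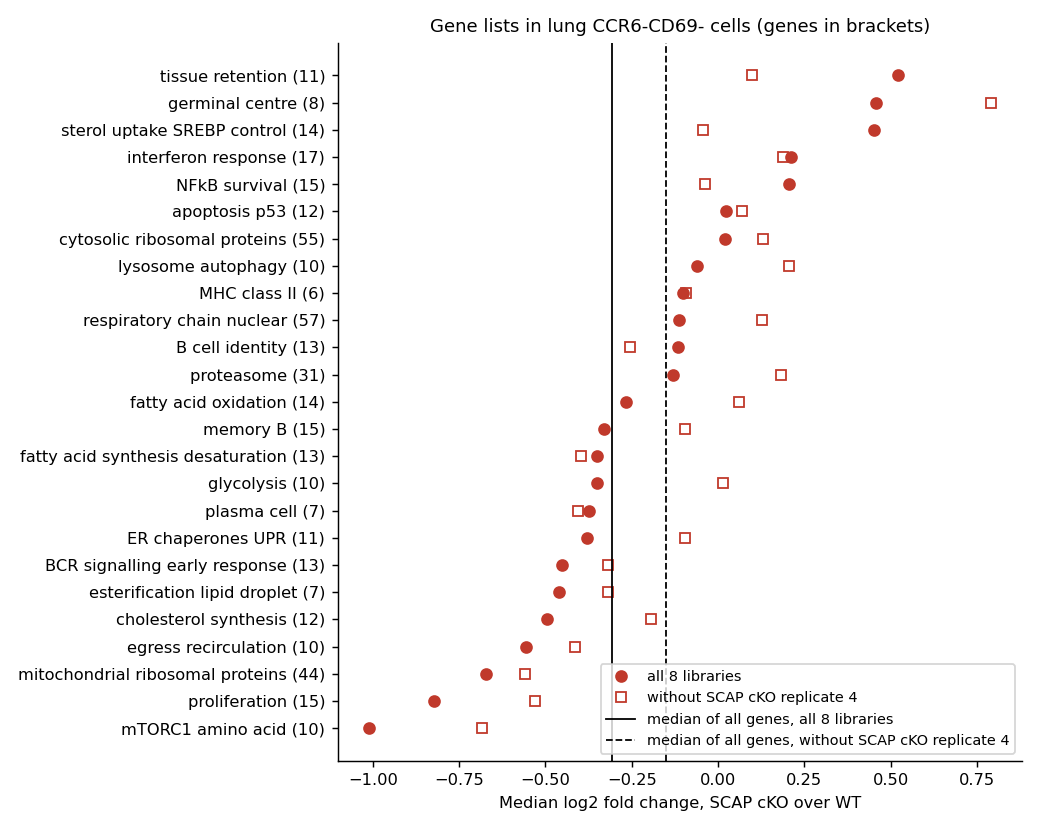
Median log2 fold change (SCAP cKO over WT) of the tested genes of 25 programmes, with all 8 libraries (filled) and without SCAP cKO replicate 4 (open); lines give the medians over all genes, -0.31 (solid) and -0.15 (dashed). The mTORC1 and amino acid list lies lowest at both settings, and the sterol uptake list moves from 0.45 to -0.04 when that library is left out.

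Among single genes with the smallest p, those higher in SCAP cKO cells often rested on replicate 4. Paqr5, a membrane progestin receptor, was also far highest in replicate 4, but the other SCAP cKO libraries exceeded all WT libraries too. It was at 89.6, 52.6, 85.0 and 2240 CPM in SCAP cKO libraries, against 4.14, 0, 12.7 and 10.9 CPM in WT libraries. Every SCAP cKO library was above every WT library, with a log2 fold change of 6.62 ± 1.74 (unadjusted p = 0.000763, adjusted p = 0.575), or 3.14 ± 1.59 without replicate 4. Elavl2 was at 3.45, 2.53, 0 and 543 CPM in SCAP cKO libraries, against 5.33, 0, 0 and 0 CPM in WT libraries. Hira, a histone chaperone, was at 51.9, 10.5, 67.0 and 2372 CPM in SCAP cKO, against 71.3, 35.3, 25.4 and 55.3 CPM in WT libraries. In Elavl2 and Hira only replicate 4 stood out, and without it the log2 fold changes of 11.65 ± 2.63 and 3.64 ± 1.09 were -0.06 ± 1.11 and -0.13 ± 1.06. Tnfrsf1a, the receptor TNFR1, was at 154, 4.21, 2.26 and 1628 CPM in SCAP cKO and 4.74, 26.5, 15.2 and 27.2 CPM in WT libraries. Mbd2, which binds methylated DNA, was at 116, 357, 231 and 2139 CPM in SCAP cKO, against 154, 156, 138 and 197 CPM in WT libraries, and its log2 fold change of 2.27 ± 0.69 was 0.61 ± 0.57 without replicate 4.

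Several genes with a small p were lower in all 4 SCAP cKO libraries than in any WT library. Chpf, which polymerises chondroitin chains, was at 3.66, 2.95, 0 and 0 CPM in SCAP cKO libraries, against 105, 55.9, 114 and 116 CPM in WT libraries (log2 fold change -6.15 ± 1.64, adjusted p = 0.468). Nrf1, a transcription factor of mitochondrial genes, was at 5.39, 3.79, 0 and 0 CPM in SCAP cKO, against 238, 162, 43.7 and 131 CPM in WT libraries (log2 fold change -5.33 ± 1.48, adjusted p = 0.534). In neither did the genotypes overlap. Ing3, Tada3 and Mbd5, which belong to chromatin regulation, were likewise apart, with log2 fold changes of -3.69 ± 1.2, -5.54 ± 1.87 and -4.81 ± 1.63. Their highest SCAP cKO values were 10.1, 0.862 and 3.79 CPM, against lowest WT values of 26.5, 26.9 and 45.2 CPM. Over 12 tested genes of apoptosis and p53 the median log2 fold change was 0.02, and 0.07 without replicate 4. Pmaip1, the BH3-only gene encoding NOXA, was at 270, 85.1, 94.8 and 62.0 CPM in SCAP cKO and 254, 373, 280 and 331 CPM in WT libraries, a log2 fold change of -1.13 ± 0.60.

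Cytosolic ribosomal protein genes held most of the remaining genes named for small p. Of 55 tested, 12 were higher at an unadjusted p under 0.05 (2.67% over all genes) and 1 was lower (4.65%), and without replicate 4 the counts were 4 and 1 (0.77% and 3.54% of all genes). The list median was 0.02, and 0.13 without replicate 4. Rpl38 was at 1396, 3750, 378 and 651 CPM in SCAP cKO libraries, against 1786, 1601, 113 and 86.7 CPM in WT libraries. Rps21 was at 4666, 11116, 397 and 736 CPM in SCAP cKO libraries, against 6186, 3104, 256 and 108 CPM in WT libraries. Both genes were lower in batch 2 than in batch 1 in both genotypes, and within batch 2 both SCAP cKO libraries exceeded both WT libraries. The log2 fold changes were 1.88 ± 0.46 for Rpl38 (adjusted p = 0.400) and 1.41 ± 0.38 for Rps21 (adjusted p = 0.468), and DESeq2 called both. Without replicate 4 they were 1.21 ± 0.38 and 0.93 ± 0.35. Within batch 1 they were 0.83 and 0.96, and within batch 2 they were 2.52 and 1.81. Rps20 was at 3359, 5017, 867 and 3054 CPM in SCAP cKO libraries, against 4333, 2495, 585 and 512 CPM in WT libraries, and its log2 fold change of 1.42 ± 0.39 was 0.46 ± 0.29 without replicate 4. The share of all counts in ribosomal protein genes was 9.86%, 14.4%, 3.80% and 3.71% in SCAP cKO and 12.3%, 8.83%, 3.35% and 3.30% in WT libraries, and it followed batch. The log2 fold change was positive for 29 of the 55 and negative for 26. Rpl29, the 1 member lower at an unadjusted p under 0.05, was at 75.2, 35.4, 2.26 and 0 CPM in SCAP cKO libraries, against 165, 323, 181 and 151 CPM in WT libraries, with no overlap and a log2 fold change of -3.83 ± 1.02 (adjusted p = 0.468). Ribosomal protein genes have many near-identical pseudogene copies, so their counts are uncertain.

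**Figure D4:**
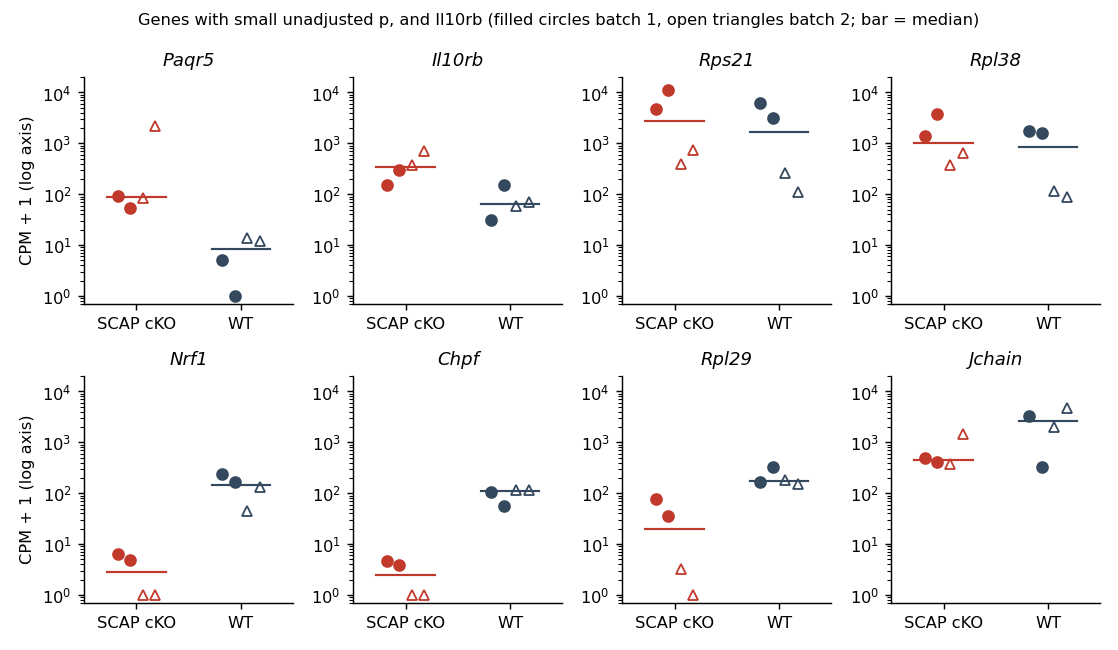
CPM + 1 (log axis) per lung CCR6-CD69- library of 7 genes named for small p and of Il10rb, SCAP cKO left and WT right; bars are medians. Paqr5 and Il10rb are higher and Nrf1, Chpf and Rpl29 lower in all 4 SCAP cKO libraries, while Rpl38 and Rps21 separate by batch.

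Of 7 tested plasma cell genes, 2 had a positive and 5 a negative log2 fold change, with a median of -0.37, against -0.31 over all genes, and none was apart. Jchain, which joins IgA and IgM multimers, was at 499, 403, 372 and 1426 CPM in SCAP cKO libraries, against 3232, 325, 1984 and 4677 CPM in WT libraries. The other 3 WT libraries were above all SCAP cKO libraries, while WT replicate 2 was below them all. The log2 fold change was -1.79 ± 0.57 (unadjusted p = 0.00326, adjusted p = 0.610), -1.84 in batch 1 and -1.70 in batch 2, and -2.52 ± 0.68 without SCAP cKO replicate 4. Sdc1, the plasma cell surface marker CD138, was at 42.7, 0.842, 0 and 0 CPM in SCAP cKO, against 13.0, 13.2, 40.6 and 235 CPM in WT libraries. Ighg3, the IgG3 constant region, was at 102, 270, 637 and 1248 CPM in SCAP cKO and 431, 150, 380 and 914 CPM in WT libraries, which overlapped throughout. The share of counts in the immunoglobulin rows analysed here averaged 0.0852% ± 0.0556 in SCAP cKO and 0.150% ± 0.0880 in WT libraries (SD, n = 4 each; two-sided exact permutation p = 0.229).

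Chaperones of the endoplasmic reticulum, which plasma cells need in quantity, had mostly negative log2 fold changes. Of 11 tested, 10 had a negative log2 fold change with a median of -0.38, but 6 of 11 without replicate 4, with a median of -0.10. Hspa5, the chaperone BiP, was at 887, 935, 1355 and 302 CPM in SCAP cKO libraries, against 982, 1534, 1771 and 2008 CPM in WT libraries, a log2 fold change of -0.62 ± 0.41, or -0.35 ± 0.31 without replicate 4. Hyou1, a BiP partner, was at 192, 40.9, 189 and 7.75 CPM in SCAP cKO, against 205, 298, 290 and 426 CPM in WT libraries. It was the 1 member whose genotypes were apart (5.21% lower over all genes), with a log2 fold change of -1.19 ± 0.72. Hsp90b1 was at 1660, 1491, 2669 and 3123 CPM in SCAP cKO and 1622, 1892, 2888 and 4724 CPM in WT libraries, a log2 fold change of -0.12 ± 0.35, or -0.33 ± 0.32 without replicate 4.

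Genes of receptor signalling and immediate early response showed no member apart. Of 13 tested, 3 had a positive and 10 a negative log2 fold change, with or without replicate 4, and medians of -0.45 and -0.32. Egr2 was at 468, 205, 211 and 15.5 CPM in SCAP cKO libraries, against 252, 778, 483 and 345 CPM in WT libraries (log2 fold change -0.94 ± 0.59, or -0.62 ± 0.51 without replicate 4). Jun, of the AP-1 factor, was at 716, 1093, 640 and 612 CPM in SCAP cKO, against 1031, 1075, 1246 and 1460 CPM in WT libraries (log2 fold change -0.45 ± 0.47). Of 15 NF-kB and survival genes 8 were positive and 7 negative with a median of 0.20, which was -0.04 without replicate 4. Traf3, which restrains noncanonical NF-kB, was at 68.3, 102, 243 and 38.8 CPM in SCAP cKO and 211, 340, 288 and 214 CPM in WT libraries, a log2 fold change of -1.09 ± 0.72.

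Tissue retention and egress genes had medians of opposite sign. Of 11 retention genes, Cd69 among them, 9 had a positive log2 fold change with a median of 0.52, and 7 without replicate 4 with a median of 0.10. Of 10 egress genes above the limit of detection 8 were negative with a median of -0.56, and 7 without replicate 4 with a median of -0.41. S1pr1, the receptor that draws lymphocytes out of tissue, was at 155, 150, 518 and 0 CPM in SCAP cKO libraries, against 254, 298, 469 and 576 CPM in WT libraries (log2 fold change -0.80 ± 0.79, or -0.45 ± 0.68 without replicate 4). Ccr7, which guides cells to lymphatics, was at 665, 1144, 1011 and 23.3 CPM in SCAP cKO, against 1173, 666, 945 and 1131 CPM in WT libraries, so that the 3 deeper SCAP cKO libraries were at or within the bounds of the WT range. Rgs16 was at 51.5, 52.6, 0 and 0 CPM in SCAP cKO and 87.6, 70.6, 117 and 90.9 CPM in WT libraries, and was the 1 retention gene apart (5.21% lower over all genes).

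Antigen presentation and memory genes overlapped almost throughout. H2-Aa, an MHC class II chain, was at 5288, 6421, 3508 and 3418 CPM in SCAP cKO libraries, against 7276, 4494, 3380 and 3333 CPM in WT libraries, a log2 fold change of 0.17 ± 0.31, or 0.00 ± 0.28 without replicate 4. Cd74, the invariant chain, was at 17486, 18307, 14073 and 5573 CPM in SCAP cKO and 23112, 14210, 16267 and 18300 CPM in WT libraries (log2 fold change -0.31 ± 0.27, or -0.14 ± 0.24 without replicate 4). Ctss, which trims that chain and is abundant in macrophages too, was at 11831, 2015, 1294 and 1535 CPM in SCAP cKO, against 1380, 6021, 1452 and 893 CPM in WT libraries. Its highest library in each genotype was the one rich in macrophage markers, whose part in the log2 fold change of 0.93 ± 0.43 (unadjusted p = 0.0328) was not tested. Of 15 memory B cell genes 6 were positive and 9 negative with a median of -0.33, and without replicate 4 it was 5 and 10 with a median of -0.10. Ski, a repressor of TGF-beta signalling, was the 1 apart (5.21% lower over all genes), at 166, 158, 226 and 7.75 CPM in SCAP cKO, against 261, 337, 435 and 305 CPM in WT libraries. Irf8, a transcription factor of germinal centre B cells, was at 1187, 1917, 3066 and 1287 CPM in SCAP cKO, against 1386, 1235, 955 and 982 CPM in WT libraries. SCAP cKO replicates 1 and 4 lay within the WT range and the other 2 above it, and the log2 fold change was 0.84 ± 0.36 (unadjusted p = 0.0237, adjusted p = 0.610) and 0.90 ± 0.31 without replicate 4.

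Proliferation genes were sparse and uneven. Of 15 tested, 11 had a negative log2 fold change with a median of -0.82, and 10 without replicate 4 with a median of -0.53. At an unadjusted p under 0.05, 2 were higher and 3 lower (2.67% and 4.65% over all genes). Without replicate 4 the counts were 0 and 2 (0.77% and 3.54% of all genes). Mki67 was at 9.48, 61.1, 702 and 0 CPM in SCAP cKO libraries, against 147, 14.7, 208 and 284 CPM in WT libraries, so the highest and the lowest values were both SCAP cKO. Stmn1, which destabilises microtubules, was at 20.0, 30.7, 41.4 and 1759 CPM in SCAP cKO, against 110, 29.4, 15.8 and 15.9 CPM in WT libraries, and its log2 fold change of 5.02 ± 1.89 was 0.13 ± 1.53 without replicate 4. The larger housekeeping sets stayed nearer the whole. The median was -0.11 for 57 nuclear respiratory chain genes, -0.13 for 31 proteasome genes and -0.35 for 10 glycolysis genes, and 0.13, 0.18 and 0.02 without replicate 4. For 44 mitochondrial ribosomal protein genes it was -0.67, and -0.56 without replicate 4, with 1 gene (Mrpl13) apart and lower, against 5.21% over all genes.

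Some genes kept the genotypes apart with counts in all 8 libraries, and 4 of them are named here after their values were seen. Il10rb, a chain of the receptors for interleukin-10 and interleukin-22, was at 151, 297, 381 and 713 CPM in SCAP cKO libraries, against 29.6, 149, 57.1 and 69.5 CPM in WT libraries, a log2 fold change of 2.42 ± 0.94 (unadjusted p = 0.0123) and 2.00 ± 0.94 without replicate 4. Trib2, a pseudokinase, was at 33.0, 37.1, 12.0 and 46.5 CPM in SCAP cKO, against 246, 75.0, 247 and 229 CPM in WT libraries, a log2 fold change of -2.43 ± 0.99 (unadjusted p = 0.0169) and -2.63 ± 1.02 without replicate 4. Saraf, which turns off store-operated calcium entry, was at 172, 118, 81.3 and 23.3 CPM in SCAP cKO, against 395, 371, 237 and 201 CPM in WT libraries (log2 fold change -1.46 ± 0.61). Golph3, which shapes Golgi membranes, was at 94.8, 55.2, 127 and 15.5 CPM in SCAP cKO, against 311, 249, 250 and 269 CPM in WT libraries (log2 fold change -1.72 ± 0.74). In SCAP cKO replicate 4, Saraf and Golph3 were no higher than the 23.3 CPM that a count of 0 allows there. The adjusted p was 0.610 for each of the 4.

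Whether the genotype effect differed from that in the other populations was tested in the same fit, which treated libraries of different populations as independent. No gene passed the threshold against lung CCR6+CD69+ cells (235 at an unadjusted p under 0.05, 3.47%, with 1.65% higher and 1.81% lower) or against circulating cells (575, 8.48%, with 2.36% higher and 6.12% lower), while DESeq2 called 3 higher (0.0443%) and 3 lower (0.0443%) and 42 higher (0.62%) and 60 lower (0.885%). Insig1 was at 114, 30.8, 8.65 and 73.5 CPM in SCAP cKO CCR6+CD69+ libraries, against 70.3, 129, 96.9 and 222 CPM in WT CCR6+CD69+ libraries. In circulating cells it was at 157, 247, 128 and 51.1 CPM in SCAP cKO, against 320, 210, 317 and 211 CPM in WT libraries. Its effect in CCR6-CD69- cells differed from that in these by -0.23 ± 1.13 and -0.82 ± 1.13 on the log2 scale (adjusted p = 1.00 and 0.895). Rpl29 was lower in SCAP cKO libraries of every population, at 0.480 to 62.4 CPM against 179 to 666 CPM in CCR6+CD69+ cells and 0 to 92.1 CPM against 165 to 653 CPM in circulating cells. The differences from CCR6-CD69- cells were 0.21 ± 1.26 and -0.38 ± 1.23. Chpf was at 5.48, 9.4, 0 and 0 CPM in SCAP cKO circulating libraries, against 71.0 to 345 CPM in WT circulating libraries, and at 3.28 to 48.1 CPM in SCAP cKO CCR6+CD69+ libraries, against 4.66 to 35.5 CPM in WT CCR6+CD69+ libraries. The effect on Chpf in CCR6-CD69- cells differed from that in CCR6+CD69+ cells by -6.64 ± 2.02 (unadjusted p = 0.00168, adjusted p = 1.00).

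The smallest p of these differences belonged to Rps21, Abcb1a and Arhgef5 against CCR6+CD69+ cells and to Shb, Ptpre and Elavl2 against circulating cells. For Rps21 the difference was 1.94 ± 0.53 (unadjusted p = 0.000550, adjusted p = 1.00), with 5465 to 6808 CPM in batch 1 and 126 to 189 CPM in batch 2 in SCAP cKO CCR6+CD69+ libraries, against 6173 to 7134 and 271 to 449 CPM in WT CCR6+CD69+ libraries. Abcb1a, a drug efflux pump, was at 0, 0.421, 0 and 0 CPM in SCAP cKO CCR6-CD69- libraries, against 0, 67.6, 1.27 and 12.1 CPM in WT, and Arhgef5 at 0 CPM in all 4 SCAP cKO, against 0, 13.2, 9.51 and 0 CPM in WT libraries. Shb, an adaptor protein, was at 1.72, 0.421, 0 and 0 CPM in SCAP cKO CCR6-CD69- libraries, against 3.26, 23.5, 1.90 and 23.9 CPM in WT libraries. In circulating cells Shb was at 207, 7.31, 45.7 and 15.3 CPM in SCAP cKO, against 0.884, 0, 0 and 0 CPM in WT libraries, and the effects differed by -12.24 ± 2.76 (unadjusted p = 3.81e-05, adjusted p = 0.212). For Ptpre and Elavl2 the values in CCR6-CD69- cells rested on SCAP cKO replicate 4, which held 3224 CPM of Ptpre against 68.6 to 275 CPM in the other 3 SCAP cKO libraries.

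**Figure D5:**
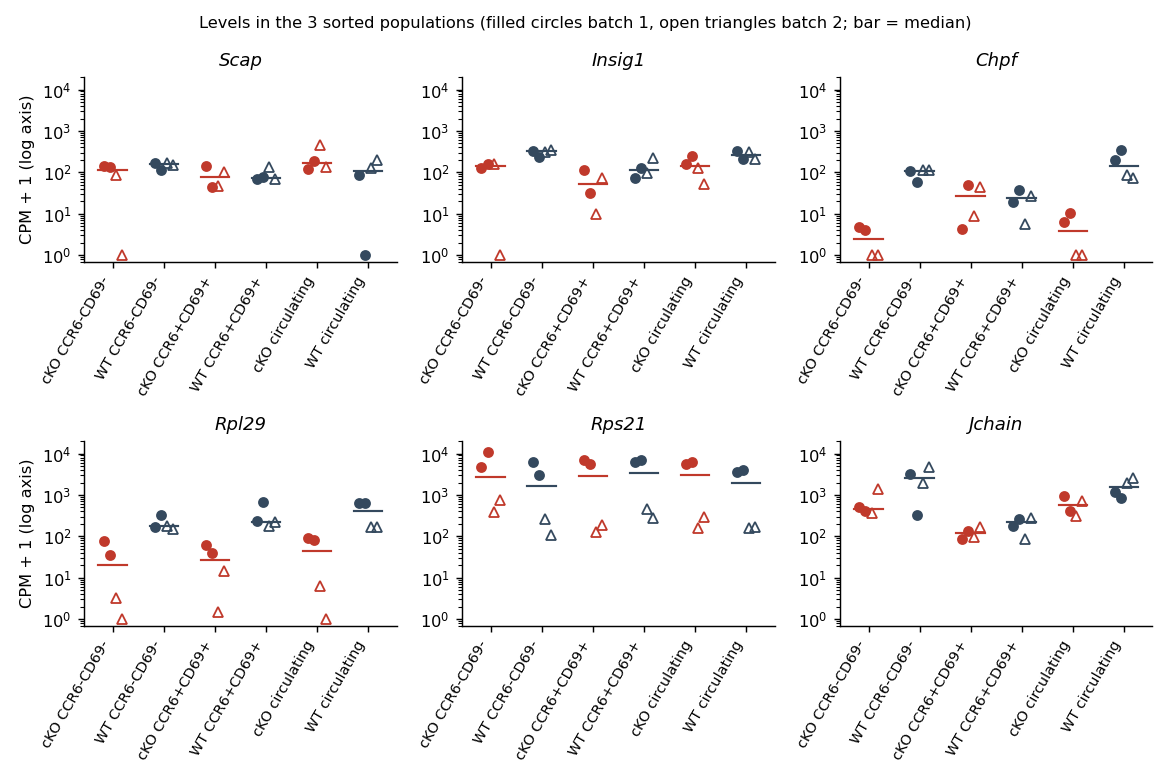
CPM + 1 (log axis) of 6 genes in the 4 libraries of each genotype in the 3 sorted populations, SCAP cKO left of WT in each pair; bars are medians. Rpl29 is lower in SCAP cKO libraries of all 3 populations, Chpf in CCR6-CD69- and circulating cells, and Rps21 separates by batch.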

How the data were processed

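PolyA RNA of the sorted cells was extracted with a Zymo microprep kit and made into libraries with an IDT xGen kit, per the labels' protocols. The table holds the authors' deposited counts, whole numbers for 18470 gene symbols in 24 libraries. FastQC, STAR, Salmon and build mm39 appear in the submitters' processing notes, with no role or version, so which tool made the counts is not given in the sources used here. Totals and counts per 1e6 (CPM, with no further scaling) refer to the rows analysed.

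Libraries were grouped by title. All 24 entered 1 fit in R 4.3.3 with edgeR 4.0.16, using TMM scaling, filterByExpr by group, terms for group and batch, and the robust quasi-likelihood F-test of SCAP cKO minus WT. Benjamini-Hochberg adjustment covered all 6779 genes tested, and the threshold was 0.05. Errors of log2 fold changes are approximate standard errors, each the absolute log2 fold change divided by the square root of its F statistic. They are unreliable where F is near 0. For 5 library measures an exact two-sided permutation test was run over 70 arrangements, so that p could not go below 0.0286. The fit was tested on simulated data.

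Named by rule were Scap, Cd69, the 8 genes of smallest p in each direction with at least 20 CPM in 1 genotype, up to 4 members of each list by p, and 3 genes for each difference between populations. Some genes that this rule names are not reported here. Further list members serve as examples chosen after their values were seen. The 36 lists and the libraries were chosen with earlier results of these data known. Alternatives were RLE factors, DESeq2 1.42.0, voom of limma 3.58.1, other filters, a fit without batch, the batches apart, fewer groups or libraries, and a replicate block. Promoters came from RefSeq's GRCm38.p6 table, used for letters alone, since the counts' build differs.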

Additional observations from a re-analysis of the deposited data

Results flagged for a closer look

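In groups of 4 libraries, a value was singled out where its gap to the nearest of the others, divided by the group's range, passed Dixon's 95% critical value. Normal values chosen without regard to their spread would pass in about 1 of 20 groups. Of 56 groups looked at, 14 were singled out. Most groups were genes named for small p in these same libraries, so the 14 cannot be set against that rate.

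SCAP cKO replicate 4 was the far library for Cd69 (4224 CPM), Elavl2 (543 CPM), Paqr5 (2240 CPM), Tnfrsf1a (1628 CPM), Hira (2372 CPM), Mbd2 (2139 CPM), Jchain (1426 CPM) and Ptpre (3224 CPM), and it was high in each. It had 129025 counts in all, and the part of its depth in these values was not tested. Abcb1a was at 0.421 CPM in SCAP cKO replicate 2, with the other 3 SCAP cKO libraries at 0.

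Among WT libraries, Elavl2 was at 5.33 CPM in replicate 1 with the others at 0, Rpl29 was high in replicate 2 (323 CPM), and Mbd5 was low in replicate 4 (45.2 CPM). The share of counts in macrophage and monocyte markers was far above the rest in SCAP cKO replicate 1 (5.42%) and in WT replicate 2 (3.95%).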

How the results depend on the processing

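The number of genes past the threshold between SCAP cKO and WT was 0 in edgeR's fit (496 at an unadjusted p under 0.05). It was 72 with DESeq2, 11 with no filter on low counts and 3 with only the groups compared. Leaving out 1 library at a time gave 0 to 2 genes, with 2 without SCAP cKO replicate 1 and 1 without SCAP cKO replicate 2. For the difference from CCR6+CD69+ cells, 6 genes passed with DESeq2 and 3 with no filter, and for that from circulating cells 102 and 10. Leaving out 1 library at a time gave 0 to 0 in both. The cause was not tested.

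Replicates with the same number had correlations of 0.010, -0.040, 0.111 and 0.054 with the group means removed. Deposited column names repeat the same numbers in every population, and whether these share animals is not stated. The correlations cannot settle that, and the main fit treated all libraries as independent. With a replicate block, 0 genes passed between genotypes (383 at an unadjusted p under 0.05), and 0 in both differences.

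The log2 fold change of Scap was 0.16 in batch 1 and 0.060 without libraries under 500000 counts. With 1 library left out, Cd69 ranged from -0.14 to 1.15, Elavl2 from -0.057 to 14.33 and Hira from -0.13 to 4.24, the lowest each time without SCAP cKO replicate 4. In batch 1 alone Cd69 was -0.038 and Hira -0.56. Without the 2 macrophage-rich libraries and the shallowest, a setting chosen after seeing the data, it was -0.20 for Cd69, -1.14 for Elavl2, -2.49 for Tnfrsf1a and -0.49 for Hira. The difference of Elavl2 from circulating cells was -0.24 at that setting and -1.55 without libraries under 500000 counts.

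Between genotypes, total counts differed by -1253100 in batch 2, and by -728134 to 775907 with 1 library left out. Genes detected differed by 294 in batch 1, and by -2341 to -613.5 with 1 library left out. The ribosomal protein share differed by -1.14 to 2.79 percentage points and the macrophage marker share by -0.878 to 1.31 with 1 library left out. Of 544 alternatives for 25 tested gene results, 498 kept direction and side of the threshold, 33 passed it and 13 reversed. Depth limits genes at 0 in SCAP cKO replicate 4, where 0 counts allow up to 23.3 CPM. Of the 353 genes lower in every SCAP cKO library, 293 were at 0 there and 52 had counts in all 4.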
